A study of Mus musculus with 8 samples.

Results

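The transcripts of glycolysis and of the response to low oxygen were measured in mouse kidney through 34 genes of the 49315 that were counted. The genes were taken by name and matched to Ensembl IDs through the GENCODE M21 symbols. They comprise 3 transporters of glucose or lactate, 18 glycolytic enzymes, 3 regulators of glycolytic flux, 4 genes of the oxygen sensor and 6 other targets of that sensor. All 34 were found in the count table, and all 34 passed the filter on low counts. Polyadenylated RNA was sequenced from frozen kidney of 4 controls and of 4 animals with a conditional knockout of Kdm1a, which encodes LSD1, a demethylase of histone H3 that works in repressor complexes. The labels give the genotype only as Control or Conditional Knockout, and the extraction protocol calls the controls wild type. The recombinase driver and the cells it deletes in, and the strain, age and sex of the animals, are not given in the sources used here. Apart from a kidney number, nothing says how far the 4 samples of a genotype are independent, and p-values measure the spread between these samples.

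Glycolysis converts glucose to pyruvate in a chain of cytosolic enzymes, and lactate dehydrogenase turns pyruvate into lactate when it does not enter the mitochondria. Hypoxia-inducible factor, or HIF, is a pair of an alpha subunit (Hif1a or Epas1) and Arnt. Prolyl hydroxylases mark the alpha subunit for destruction while oxygen is present, so much of its control acts on the protein and not on the transcript. In low oxygen HIF binds short DNA elements near many glycolytic genes and near genes for blood vessel growth, acid handling and mitochondrial turnover. In the kidney the proximal tubule burns mainly fatty acids and makes glucose, while the distal segments and the medulla rely more on glycolysis.

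The libraries held between 19524945 and 28544511 counts. Levels are given as CPM, which are read counts brought to one library size by TMM scaling, and folds as knockout over control on the log2 scale with a standard error (SE). Adjusted p-values come from the quasi-likelihood test of edgeR with the Benjamini-Hochberg method over 18485 genes, and a gene is called when its adjusted p is under 0.05. Kdm1a had 113 ± 4.77 CPM in controls and 93.6 ± 1.88 CPM in knockouts (SD, n = 4 each), which is -0.27 on the log2 scale (SE 0.05, adjusted p = 0.0194), and its groups did not overlap. It missed without control 1 (adjusted p = 0.0550), control 3 (0.0675), knockout 1 (0.0543), knockout 2 (0.0529) or knockout 4 (0.0765). Over all tested genes 14.9% were called, 6.61% higher and 8.27% lower in the knockout, and the median log2 fold change was 0.00. On the leading principal component, which held 62.7% of the variance, control replicate 2 scored 9.56 and knockout replicate 3 scored 9.71. The other controls lay between -78.7 and -52.4 on it, and the other knockouts between 48.3 and 68.4. Adrenal genes added up to 2770 CPM in knockout 1, 383 CPM in knockout 4 and 154 CPM in control 4, against 17.7 to 24.7 CPM elsewhere. Y-linked transcripts summed to 0.760 to 2.63 CPM in control replicate 2 and knockout replicates 1 and 4, and to 229 to 289 CPM in the others.

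Transcripts of the glycolytic pathway were lower in the knockout kidneys, and most other genes of the oxygen response did not pass the test. Of the 34 genes, 12 fell and 2 rose, which is 41.2% called against the background of 14.9%. By direction, 12 of 34 called lower stands beside 8.27% and 2 of 34 called higher beside 6.61%. The genes that fell were the glucose transporter Slc2a1, the enzymes Aldoa, Aldoc, Tpi1, Gapdh, Pgk1, Pgam1, Eno1, Pklr, Ldha and Ldhb, and the stress-response gene Ndrg1. The 2 that rose were Slc2a3 and Slc16a3, a glucose and a lactate transporter. Counting calls and other genes alike, 28 of the 34 had a negative fold change, and their median log2 fold change was -0.38. For 6 of the 34 genes the groups were fully apart, with Slc2a3 and Slc16a3 higher and Aldoc, Pklr, Hif1a and Ndrg1 lower, against 18.9% of all tested genes.

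**Figure D1:**
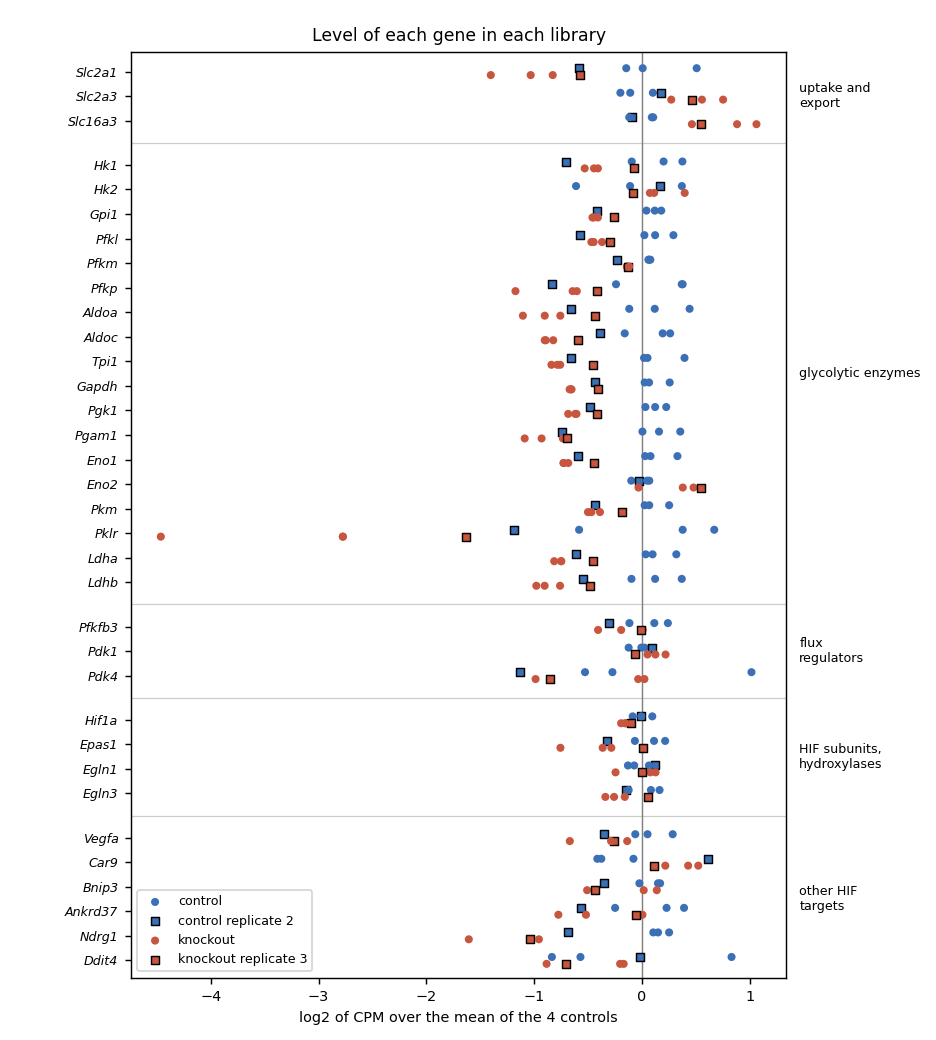
Level of each of the 34 genes in each library, as log2 of its CPM over the mean of the 4 controls, with genes in rows by role, controls in blue, knockouts in red and squares for control replicate 2 and knockout replicate 3. Most glycolytic enzymes lie left of 0 in the knockouts, the 2 squares lie close together for many of them, and Slc2a3 and Slc16a3 lie right of all controls in every knockout.

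The position of single libraries was alike across the genes that fell. In all 12 of them control replicate 2 was the lowest control, and in 11 of the 12 knockout replicate 3 was the highest knockout. All knockouts lay below controls 1, 3 and 4 in all 12 genes, but below all 4 controls in 3 of them. The 12 were called on these same values, so that separation is partly built in. Of the 20 genes not called, control replicate 2 was the lowest control in 13 and knockout replicate 3 the highest knockout in 9. All knockouts lay below controls 1, 3 and 4 in 7 of those 20. Every knockout lay below every control in 4 of the 34 genes, and in 1770 of all 18485 tested genes. The other orders were not counted over all genes, so they are not shown to be particular to this pathway. On the leading principal component of all tested genes, control replicate 2 and knockout replicate 3 also lay between the other controls and the other knockouts. With control replicate 2 and knockout replicate 3 left out together, 21 of the 34 genes were called lower and 3 higher, in a fit where 7903 genes were called over the whole table. With knockout replicates 1 and 4, the libraries with the most adrenal transcripts, left out together, 0 of the 34 were called, although 29 had a negative fold change. That fit of 4 controls against 2 knockouts called 1 gene over the whole table. For the 12 genes that fell, its log2 fold changes ran from -2.39 to -0.51, beside -2.56 to -0.58 with all libraries, and the adjusted p of the 14 genes otherwise called ran from 0.156 to 0.284. With the adrenal transcripts as a covariate 3 of the 14 calls held, Aldoc and Ndrg1 lower and Slc16a3 higher. With the Y-linked transcripts as a covariate 10 held, and Slc2a1, Aldoa, Tpi1 and Eno1 missed.

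The DNA just before the start of these genes was searched for the core letters that HIF is known to bind, so that the pathway genes that fell can be set beside those that did not pass. RefSeq promoter windows (GRCm38.p6, 250 bases before to 50 after a start) were found for 31 of the 34 genes, with 46 windows. Epas1, Ndrg1 and Slc2a3 had no entry. The letters searched were ACGTG and GCGTG on both strands, and the palindrome CACGTG counts as ACGTG on each strand. The windows of 4 genes are given 5′ to 3′ on the gene's own strand, with every match on either strand in capitals. Ldha and Pgk1 fell, Slc16a3 rose, and Bnip3 did not pass the test.
Ldha, chr7:46845554-46845853, plus strand: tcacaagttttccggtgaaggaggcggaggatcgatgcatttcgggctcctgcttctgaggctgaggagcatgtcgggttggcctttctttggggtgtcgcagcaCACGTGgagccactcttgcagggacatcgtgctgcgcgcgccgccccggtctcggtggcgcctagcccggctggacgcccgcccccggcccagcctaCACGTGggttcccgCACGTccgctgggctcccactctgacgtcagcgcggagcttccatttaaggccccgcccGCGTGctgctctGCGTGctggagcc
Pgk1, chrX:106186850-106187149, plus strand: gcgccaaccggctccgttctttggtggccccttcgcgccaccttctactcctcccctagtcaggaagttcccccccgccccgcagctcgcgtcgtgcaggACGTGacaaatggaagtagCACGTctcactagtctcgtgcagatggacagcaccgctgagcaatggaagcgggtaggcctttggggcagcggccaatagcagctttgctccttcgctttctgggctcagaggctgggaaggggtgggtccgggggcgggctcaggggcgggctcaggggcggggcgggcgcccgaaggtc
Slc16a3, chr11:120948817-120949116, plus strand: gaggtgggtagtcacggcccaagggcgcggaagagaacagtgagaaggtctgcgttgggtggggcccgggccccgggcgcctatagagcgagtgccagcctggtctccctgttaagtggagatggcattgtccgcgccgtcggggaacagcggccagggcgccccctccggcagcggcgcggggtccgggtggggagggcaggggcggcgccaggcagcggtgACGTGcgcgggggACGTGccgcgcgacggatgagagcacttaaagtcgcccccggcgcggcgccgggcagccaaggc
Bnip3, chr7:138909457-138909756, minus strand: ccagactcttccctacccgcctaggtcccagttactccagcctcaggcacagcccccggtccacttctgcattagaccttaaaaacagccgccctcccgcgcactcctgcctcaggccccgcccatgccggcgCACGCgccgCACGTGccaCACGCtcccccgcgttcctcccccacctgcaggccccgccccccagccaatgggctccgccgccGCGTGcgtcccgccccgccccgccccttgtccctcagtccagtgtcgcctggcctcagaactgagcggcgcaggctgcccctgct
The Ldha window shown held 5 matches to ACGTG and 2 to GCGTG, the Bnip3 window 2 and 3, and the Pgk1 and Slc16a3 windows 2 matches to ACGTG each. Another Ldha window, at 46846832 to 46847131, held 0 matches to ACGTG and 2 to GCGTG. Matches thus stand in genes that fell, in a gene that rose and in a gene that was not called.

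At least 1 match was found in 27 of the 31 genes (87.1%), against 63.8% of the tested genes that have a window. By window, 76.1% of those of the 31 genes held a match, against 58.2% of all windows of tested genes. ACGTG alone was found in 21 of the 31 genes (67.7%), against 27.5%. Among genes with a window, 9 of the 11 that fell and 17 of the 19 that were not called held a match. Neither Pklr, which had the most negative fold change of the 34, nor Tpi1 held these letters in their windows. A match describes the letters only, and no binding was measured.

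The transporters of glucose and lactate did not share a direction, as Slc2a1 fell while Slc2a3 and Slc16a3 rose. Slc2a1 (chromosome 4, 119108711 to 119137983, plus strand) encodes the widespread glucose transporter of the plasma membrane and is a classical HIF target. Its level in the controls, in order of replicate, was 89.3, 65.9, 140 and 99.2 CPM, and in the knockouts 55.6, 37.3, 66.4 and 48.3 CPM. Control replicate 2 and knockout replicate 3 nearly coincided, and the other 3 knockouts lay below every control. Slc2a1 fell by 0.93 in log2 units (SE 0.24, adjusted p = 0.0347), from 98.7 ± 31.1 to 51.9 ± 12.2 CPM (SD, n = 4 each).

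Slc2a3 (chromosome 6, 122727809 to 122801640, minus strand) encodes a glucose transporter of high affinity that is best known from neurons. It had 12.0, 12.7, 10.4 and 9.77 CPM in the controls and 16.5, 13.6, 15.5 and 18.9 CPM in the knockouts. Every knockout lay above every control, with a narrow gap between control replicate 2 and knockout replicate 2. Slc2a3 rose by 0.52 in log2 units (SE 0.14, adjusted p = 0.0362). Of 5 markers of neurons 2 were called higher, beside 6.61% of all tested genes. The 5 markers summed to 23.5 to 60.4 CPM in controls and 56.4 to 205 CPM in knockouts. Their part in the level of Slc2a3 was not tested.

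Slc16a3 (chromosome 11, 120948480 to 120960868, plus strand) encodes a lactate exporter of strongly glycolytic cells and is also a HIF target. Its level was 13.1, 11.5, 13.0 and 11.3 CPM in the controls, and 25.6, 16.9, 17.9 and 22.6 CPM in the knockouts. The groups were well apart, and knockout replicates 1 and 4 were the highest. Those knockouts had the most adrenal transcripts (2770 and 383 CPM) and neuronal markers (143 and 205 CPM), and few Y-linked transcripts (0.760 and 2.63 CPM). These traits fall on the same libraries and cannot be told apart. Control replicate 4, with 154 CPM of adrenal transcripts, had the lowest Slc16a3, and the gene stayed called with the adrenal covariate. The part of these traits in its level was not tested. Slc16a3 rose by 0.76 in log2 units (SE 0.15, adjusted p = 0.0188), a mean change of 69.3%. With knockout replicates 1 and 4 left out the log2 fold change was 0.50 (adjusted p = 0.174).

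These 3 calls depended on single libraries. Slc2a1 and Slc2a3 passed without control replicate 2 or without knockout replicate 3, and missed when any other library was left out. Over the whole table those other fits called between 153 and 695 genes, beside 2751 with all libraries. Across those other 6 fits the adjusted p of Slc2a1 was 0.0771 (without control 1), 0.0894 (control 3), 0.0836 (control 4), 0.0788 (knockout 1), 0.0856 (knockout 2) and 0.104 (knockout 4). For Slc2a3 it was 0.0767, 0.107, 0.0976, 0.0880, 0.0530 and 0.101 in the same order. Slc16a3 missed without control 3 (0.0555), control 4 (0.0520), knockout 1 (0.0502) or knockout 4 (0.0645).

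Of the 18 glycolytic enzymes 10 fell, none of them rose, and 8 did not pass the test. Their median log2 fold change was -0.62, beside 0.00 over all tested genes, and 16 of 18 were negative. Added up, the 18 enzymes made up 0.695% of the scaled counts in controls and 0.466% in knockouts. Their summed level was 7016, 4866, 7371 and 8551 CPM in the controls and 4451, 4360, 5375 and 4469 CPM in the knockouts. Only knockout replicate 3 reached above a control, control replicate 2, and the mean changed by -32.9%. Those 2 are the lowest control and the highest knockout of this same sum, so leaving them out widens the difference by construction. Without them the sums were 7646 ± 804 and 4427 ± 58.0 CPM (SD, n = 3 each), a difference of -42.1%. With knockout replicates 1 and 4 left out instead, the difference was -30.0%.

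The genes were divided by step after their values were seen. Of the 6 genes for the steps before aldolase, which spend energy to prepare glucose for cleavage, 0 were called and 3 had an unadjusted p under 0.05. Of the 12 from aldolase to lactate dehydrogenase 10 fell. DESeq2 called 2 of the first 6 and limma-voom with sample weights 5. Each called all 12 of the others, Eno2 higher and the rest lower. Over all 18485 tested genes DESeq2 called 4506 and limma-voom 8302. Hexokinases trap glucose in the cell by phosphorylation. Hk1, the widespread form, had a mean of 132 ± 39.0 CPM in controls and 103 ± 15.3 CPM in knockouts, and a log2 change of -0.35 (SE 0.21, adjusted p = 0.252). Hk2, the inducible form and a HIF target, had 33.7 ± 9.25 and 37.0 ± 5.25 CPM (0.14, SE 0.19, adjusted p = 0.640). Gpi1, which makes fructose phosphate, had 537 ± 92.0 and 410 ± 27.5 CPM (-0.39, SE 0.12, adjusted p = 0.0593). In Hk1 and Gpi1 control replicate 2 was the lowest control.

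Phosphofructokinase, the committed step, is built from 3 kinds of subunit. Pfkl, the liver form, had 142 ± 33.5 CPM in controls and 108 ± 5.95 CPM in knockouts, and a log2 change of -0.39 (SE 0.16, adjusted p = 0.114). Pfkm, the muscle form, had 85.0 ± 8.31 and 77.6 ± 0.532 CPM (-0.13, SE 0.08, adjusted p = 0.246). Pfkp, the platelet form, had 58.0 ± 20.9 and 36.1 ± 7.45 CPM (-0.68, SE 0.27, adjusted p = 0.105). So Pfkp had a fold change as large as that of called enzymes, but its controls spread from 32.5 to 75.4 CPM.

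Aldolase splits the sugar into triose phosphates, and both of its forms among the 18 enzymes fell. Aldoa, the widespread form, had 552, 378, 650 and 813 CPM in controls and 354, 278, 443 and 320 CPM in knockouts. Knockout replicate 3 lay above control replicate 2, and all other knockouts lay below the controls. Aldoa fell by 0.78 in log2 units (SE 0.22, adjusted p = 0.0473), the weakest call among the 34. Aldoc, best known from brain, had 13.8, 11.8, 17.7 and 18.5 CPM in controls and 8.28, 8.33, 10.2 and 8.74 CPM in knockouts. The groups of Aldoc did not overlap, and it fell by 0.80 (SE 0.16, adjusted p = 0.0205).

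Fbp1 and Pck1, which are on the list of proximal tubule markers and not among the 18 enzymes, encode enzymes that run the pathway towards glucose. Fbp1 had 198, 50.5, 107 and 255 CPM in controls and 7.90, 2.51, 22.4 and 12.9 CPM in knockouts. Pck1 had 171, 44.8, 142 and 191 CPM in controls and 11.1, 4.27, 10.3 and 12.1 CPM in knockouts. No knockout reached a control in either gene, and they fell by 3.72 (adjusted p = 0.0164) and 3.85 (adjusted p = 0.00724) in log2 units.

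Tpi1, Gapdh, Pgk1, Pgam1 and Eno1, which act in a row to turn triose phosphates into phosphoenolpyruvate, all fell. Gapdh (chromosome 6, 125161715 to 125166467, minus strand), which couples oxidation to the making of a high-energy phosphate, had 1656, 1168, 1609 and 1890 CPM in controls and 993, 1005, 1191 and 1003 CPM in knockouts. Knockout replicate 3 lay just above control replicate 2, and the other 3 knockouts lay close together beneath every control. Gapdh, often taken as a constant reference in expression assays, fell by 0.59 in log2 units (SE 0.14, adjusted p = 0.0264).

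Tpi1, which interconverts the triose phosphates, had 449, 281, 459 and 583 CPM in controls and 257, 248, 324 and 262 CPM in knockouts, and fell by 0.70 (SE 0.19, adjusted p = 0.0427). Pgk1 (chromosome X, 106187100 to 106203699, plus strand), whose promoter window held 2 matches to ACGTG, makes the first ATP of the pathway. Its level was 427, 300, 455 and 489 CPM in controls and 260, 272, 314 and 274 CPM in knockouts, a fall of 0.58 (SE 0.14, adjusted p = 0.0300). In both genes knockout replicate 3 alone lay above control replicate 2. Pgam1, the mutase that follows, had 129, 69.1, 116 and 147 CPM in controls and 69.3, 60.4, 71.4 and 54.2 CPM in knockouts. It fell by 0.85 (SE 0.21, adjusted p = 0.0302), and knockout replicates 1 and 3 lay just above control replicate 2.

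Enolase makes phosphoenolpyruvate, and its 2 forms did not move together. Eno1, the widespread form, had 827, 538, 856 and 1018 CPM in controls and 504, 490, 596 and 489 CPM in knockouts. It fell by 0.64 in log2 units (SE 0.17, adjusted p = 0.0382), and knockout replicate 3 lay above control replicate 2. Eno2, the neuronal form, had 16.9, 17.8, 18.7 and 19.0 CPM in controls and 25.3, 17.7, 26.5 and 23.6 CPM in knockouts. In 3 knockouts Eno2 was above every control, while knockout replicate 2 lay among the controls, and the gene did not pass (0.36, SE 0.13, adjusted p = 0.0814). Without knockout replicate 2 its log2 fold change was 0.47 (adjusted p = 0.0399). The part of the neuronal markers in its level was not tested.

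Pyruvate kinase closes the pathway. Pkm, the form of most tissues, had 890, 649, 916 and 1042 CPM in controls and 618, 668, 770 and 632 CPM in knockouts, and did not pass (-0.38, SE 0.14, adjusted p = 0.0868). Pklr (chromosome 3, 89136142 to 89146784, plus strand) encodes the liver and red cell form, which in the kidney belongs to the proximal tubule. It had 8.64, 2.92, 4.44 and 10.6 CPM in controls and 0.971, 0.301, 2.15 and 0.971 CPM in knockouts. No knockout reached a control, and Pklr fell by 2.56 in log2 units (SE 0.56, adjusted p = 0.0240). Of 6 markers of red blood cells 0 were called and 1 had an unadjusted p under 0.05, with sums of 404 to 803 CPM in controls and 465 to 1351 CPM in knockouts.

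Both subunits of lactate dehydrogenase fell. Ldha, the form of glycolytic tissue, is a HIF target with 7 matches in the promoter window shown. It had 488, 312, 510 and 594 CPM in controls and 283, 271, 349 and 284 CPM in knockouts. Ldhb, the form of oxidative tissue, had 568, 415, 662 and 785 CPM in controls and 325, 308, 434 and 359 CPM in knockouts. In each gene knockout replicate 3 lay above control replicate 2 and the other knockouts lay below all controls. Ldha fell by 0.68 (SE 0.18, adjusted p = 0.0355) and Ldhb by 0.77 (SE 0.19, adjusted p = 0.0300).

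**Figure D2:**
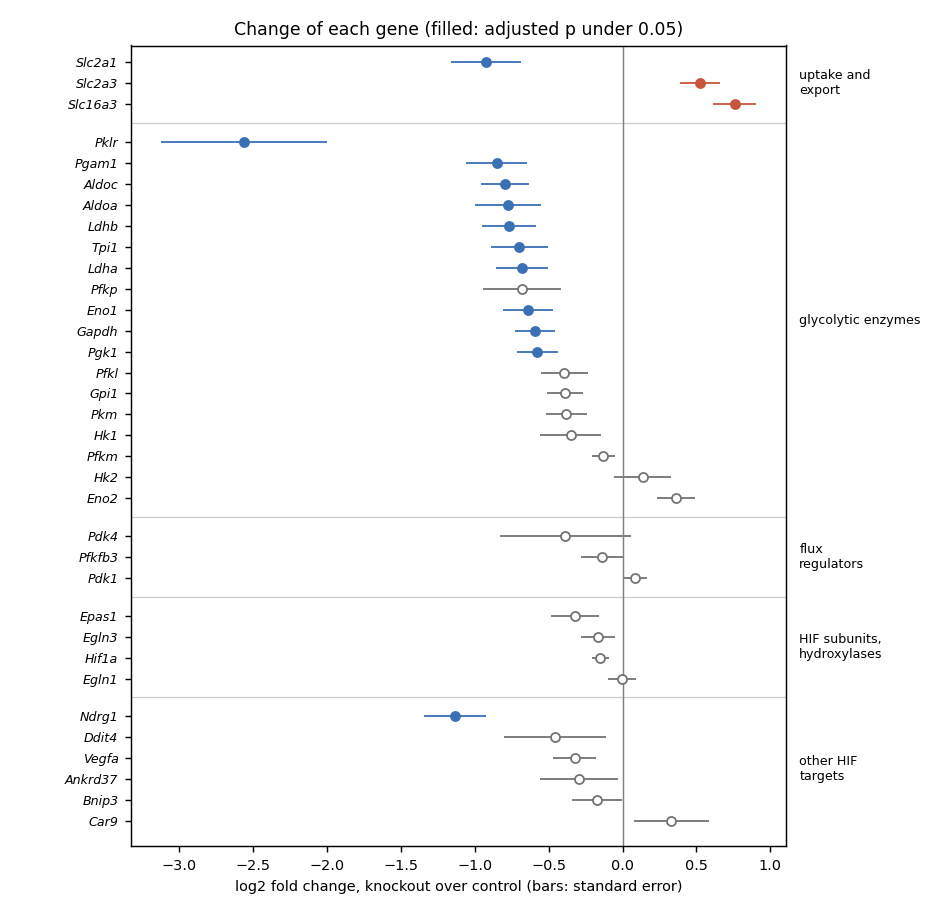
Log2 fold change of each of the 34 genes, knockout over control, with bars of 1 standard error, genes in rows by role and filled points for an adjusted p under 0.05. The 10 enzymes that fell lie between -2.56 and -0.58, and Ndrg1 is the only filled point among the HIF subunits, hydroxylases and other targets.

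The 10 enzyme calls also depended on single libraries, in the same fits as those of Slc2a1 and Slc2a3. All 10 held without control replicate 2 (highest adjusted p 0.00424) and without knockout replicate 3 (0.0387). None of the 10 held when any 1 of the other 6 libraries was left out, with adjusted p from 0.0515 to 0.104 without control 1, 0.0597 to 0.121 without control 3 and 0.0571 to 0.120 without control 4. They ran from 0.0608 to 0.106 without knockout 1, 0.0536 to 0.117 without knockout 2 and 0.0721 to 0.130 without knockout 4. Calls were lost over the whole table too. In the same order those 6 fits called 536, 374, 695, 567, 596 and 153 genes, beside 2751 with all libraries. The direction was lower for all 10 in each of these fits, and the median log2 fold change of all 18 enzymes stayed between -0.75 and -0.51.

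Markers of several cell types were called as well, and over all tested genes 8.27% were called lower and 6.61% higher. All 14 proximal tubule markers were called lower, with sums of 709 to 2785 CPM in controls and 56.5 to 389 CPM in knockouts, and control replicate 2 and knockout replicate 3 were again the nearest pair. Of 6 markers of the thick ascending limb 4 were called lower (232 to 1084 against 14.4 to 312 CPM), of 5 podocyte markers 2 (378 to 559 against 279 to 340 CPM), and of 6 endothelial markers 1 (413 to 641 against 287 to 482 CPM). Of 4 tested markers of the distal convoluted tubule 2 were called lower, yet the sums overlapped (468 to 624 against 488 to 683 CPM). Of 7 tested collecting duct markers 0 were called and 2 had an unadjusted p under 0.05 in edgeR (317 to 1020 against 78.0 to 706 CPM). Of 6 fibroblast markers 1 was called higher, with sums of 2670 to 3708 CPM in controls and 3042 to 5189 CPM in knockouts. Of 4 leukocyte markers tested 1 was called higher (53.6 to 68.4 against 65.1 to 80.1 CPM), while Cd3e, which defines T cells, was near 0 and not tested. Of 6 nephron progenitor markers 2 were called lower, yet the sums overlapped (308 to 506 against 337 to 501 CPM). The endothelial and fibroblast lists had 16.7% called each, near the 14.9% of all genes, and the leukocyte call was 1 gene. In RNA of whole kidney, fewer cells of a type and less RNA per cell cannot be told apart, and the part of these shifts in the glycolytic values was not tested.

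**Figure D3:**
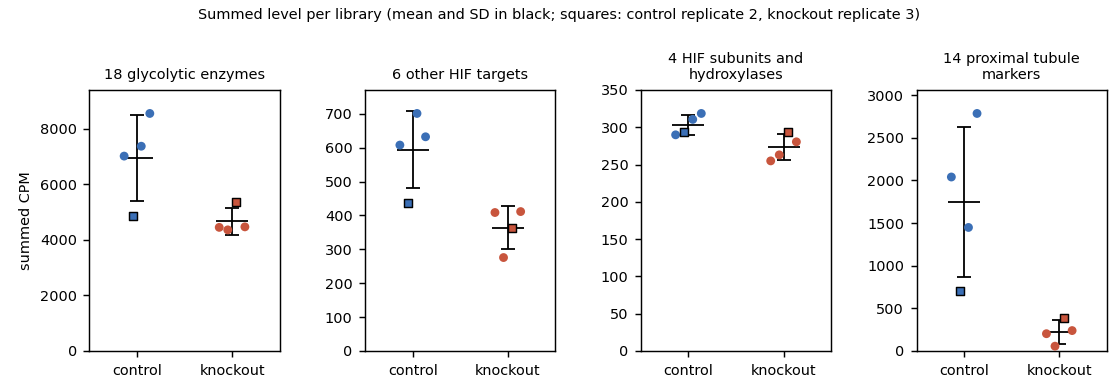
Summed CPM per library of the 18 glycolytic enzymes, the 6 other HIF targets, the 4 HIF subunits and hydroxylases and 14 proximal tubule markers, by group, with mean and SD in black and squares for control replicate 2 and knockout replicate 3. Control replicate 2 is the lowest control in the sums of enzymes, targets and tubule markers, and the knockouts lie below all controls for the 6 targets (276 to 411 against 435 to 701 CPM).

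Of the 3 regulators of glycolytic flux 0 were called by edgeR, DESeq2 or limma-voom, and 0 had an unadjusted p under 0.05. Pfkfb3, which makes the activator of phosphofructokinase, had 24.6 ± 4.05 CPM in controls and 22.3 ± 2.90 CPM in knockouts (-0.14, SE 0.14, adjusted p = 0.495). Pdk1, a HIF target that keeps pyruvate out of the mitochondria, had 81.5 ± 5.05 and 86.5 ± 7.19 CPM (0.09, SE 0.08, adjusted p = 0.445). Pdk4, a related kinase induced by fasting, had 17.9, 9.83, 15.0 and 43.7 CPM in controls and 21.1, 10.9, 11.9 and 21.9 CPM in knockouts. Control replicate 4 alone set the sign of its fold change, which was -0.39 with it (SE 0.44, adjusted p = 0.553) and 0.20 without it.

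Of the 4 genes of the oxygen sensor 0 were called, beside 14.9% of all tested genes. With so few genes that count cannot be told apart from the share over all genes. Their median log2 fold change was -0.16. Egln2, a further hydroxylase of the sensor that is not among these 4, was called lower (-0.44) and is described below. Hif1a had 140, 147, 159 and 148 CPM in controls and 130, 134, 138 and 133 CPM in knockouts. Every knockout lay below every control, but the difference was small, and a log2 change of -0.15 (SE 0.06, adjusted p = 0.0970). Epas1, the alpha subunit known from endothelium and from the cells that make erythropoietin, had 59.5, 49.8, 67.3 and 72.3 CPM in controls and 48.4, 36.8, 62.7 and 51.1 CPM in knockouts. Its groups overlapped through control replicate 2 and knockout replicate 3, and it did not pass (-0.32, SE 0.16, adjusted p = 0.194).

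Egln1, the main prolyl hydroxylase, had 68.3 ± 5.51 CPM in controls and 68.2 ± 7.46 CPM in knockouts (SE of the log2 fold change 0.09, adjusted p = 0.991). Egln3, a hydroxylase that HIF itself induces, had 23.8 ± 2.55 and 21.2 ± 2.57 CPM (-0.17, SE 0.11, adjusted p = 0.319). At an unadjusted p under 0.05, Hif1a was the only 1 of the 4. DESeq2 called none of them. The fit of limma-voom with sample weights called Hif1a and Epas1, and it called 8302 of all 18485 tested genes.

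Among the 6 other HIF targets 1 fell, which is 16.7% called and near the 14.9% of all genes. The median log2 fold change was -0.31, beside -0.62 for the 18 glycolytic enzymes and 0.00 for all tested genes. That gene was Ndrg1 (chromosome 15, 66929321 to 66969640, minus strand), a stress-response gene of the cytoplasm that many cells induce in low oxygen. It had 377, 197, 341 and 351 CPM in controls and 154, 104, 155 and 163 CPM in knockouts. The groups did not overlap, and control replicate 2 was again the lowest control. Ndrg1 fell by 1.14 in log2 units (SE 0.21, adjusted p = 0.0173), from 317 ± 81.1 to 144 ± 27.0 CPM (SD, n = 4 each). It missed without control 1 (adjusted p = 0.0522), control 3 (0.0555) or knockout 4 (0.0566), and with knockout replicates 1 and 4 left out its log2 fold change was -1.29 (adjusted p = 0.156).

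The other 5 targets did not pass, and they did not share a direction. Vegfa, which drives blood vessel growth, had 124, 102, 134 and 158 CPM in controls and 118, 81.3, 108 and 106 CPM in knockouts (-0.32, SE 0.15, adjusted p = 0.150). Bnip3, which marks mitochondria for removal and whose promoter window held 5 matches, had 46.4, 36.9, 53.0 and 52.3 CPM in controls and 47.7, 33.1, 34.8 and 51.9 CPM in knockouts (-0.17, SE 0.17, adjusted p = 0.494). The groups of Vegfa and Bnip3 overlapped across several libraries. Ddit4, an inhibitor of growth signalling, ranged from 52.7 to 167 CPM in controls and from 51.0 to 83.7 CPM in knockouts (-0.46, SE 0.34, adjusted p = 0.361).

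Car9, a carbonic anhydrase of the cell surface that is among the most specific HIF targets, had 2.58, 4.17, 2.10 and 2.05 CPM in controls and 3.17, 3.92, 2.94 and 3.67 CPM in knockouts. All knockouts lay above controls 1, 3 and 4, and control replicate 2 was the highest of all 8 libraries. Its log2 fold change was 0.33 (SE 0.25, adjusted p = 0.373), and 0.61 without control replicate 2 (adjusted p = 0.0341). Ankrd37, a small HIF-induced ankyrin repeat gene, had 4.12 ± 1.21 CPM in controls and 3.35 ± 0.842 CPM in knockouts (-0.30, SE 0.26, adjusted p = 0.444).

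In sum the 6 targets had 594 ± 113 CPM in controls and 364 ± 63.3 CPM in knockouts (SD, n = 4 each), and the groups did not overlap. Ndrg1 carried most of that. Without it the other 5 summed to 230, 238, 360 and 281 CPM in controls and 254, 172, 207 and 248 CPM in knockouts, and the groups overlapped. The medians of enzymes and targets were not compared by a test. With control replicate 2 and knockout replicate 3 left out they were -0.83 and -0.42, and with knockout replicates 1 and 4 left out -0.55 and -0.46.

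Wider lists of the same pathways were examined next. Of 23 further genes of glycolysis and pyruvate handling 22 were tested, 5 fell and 2 rose (31.8% called, against 14.9% of all genes), with a median log2 fold change of -0.22. Pgam2, the muscle mutase, fell by 1.83 (adjusted p = 0.0192), from 13.4, 8.25, 21.4 and 28.5 CPM to 5.32, 3.56, 6.30 and 4.93 CPM. Pdk2, a kinase of pyruvate dehydrogenase, fell by 0.67 (adjusted p = 0.0225), and Pdhb, a subunit of that complex, by 0.54 (adjusted p = 0.0300). Both subunits of the mitochondrial pyruvate carrier fell, Mpc1 by 0.59 (adjusted p = 0.0319) and Mpc2 by 0.80 (adjusted p = 0.0324). Groups did not overlap for Pgam2, Pdk2 and, narrowly, Pdhb. These 5 calls held without control 2 or knockout 3, but not without control 3 (adjusted p from 0.0614 for Pgam2 to 0.0922 for Mpc2), knockout 1 (0.0556 to 0.0861 for the same genes), knockout 2 (0.0552 to 0.0856) or knockout 4 (0.0710 to 0.0905). Pgam2 was the 1 of the 5 that also held without control 1 or control 4, where the others had 0.0584 to 0.0909 and 0.0591 to 0.0858.

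The 2 that rose, Pfkfb1 and Pfkfb2, encode relatives of Pfkfb3 that set the level of the same activator. Pfkfb1 had 3.36, 3.52, 3.47 and 3.59 CPM in controls and 5.41, 4.97, 5.50 and 5.29 CPM in knockouts. Replicates of Pfkfb1 were tight in both groups, and it rose by 0.60 (SE 0.13, adjusted p = 0.0225). Pfkfb2 rose by 0.36 (SE 0.10, adjusted p = 0.0381), from 16.2 to 19.5 CPM in controls to 20.7 to 24.7 CPM in knockouts. Both held without control 2 or knockout 3, and missed without control 1 (adjusted p 0.0634 and 0.0583), control 3 (0.0730 and 0.114), control 4 (0.0601 and 0.0858), knockout 1 (0.0593 and 0.0958), knockout 2 (0.0529 and 0.0645) or knockout 4 (0.0715 and 0.101).

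Of 12 further components of HIF control, such as its partner subunit, cofactors and degradation factors, 2 fell and none rose (16.7% called, near the 14.9% of all genes), with a median of -0.06. Egln2, the remaining prolyl hydroxylase, had 97.3, 82.4, 103 and 104 CPM in controls and 69.6, 79.9, 70.4 and 65.6 CPM in knockouts, without overlap, and fell by 0.44 (SE 0.09, adjusted p = 0.0220). Siah2, a ubiquitin ligase that acts on hydroxylases, fell by 0.62 (SE 0.18, adjusted p = 0.0487). Of the 3 hydroxylases, Egln2 was the 1 that passed. It missed without control 1 (adjusted p = 0.0630), control 3 (0.0714), control 4 (0.0637), knockout 1 (0.0620) or knockout 4 (0.0790). Siah2 held only without control 2, and otherwise had 0.0682 (without knockout 3) to 0.130 (without knockout 4).

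Of 30 further hypoxia targets 29 were tested, and 2 rose and 2 fell (13.8% called, against 14.9% of all genes), with a median of -0.05. Lox, which cross-links collagen, had 96.8, 130, 128 and 111 CPM in controls and 228, 185, 184 and 263 CPM in knockouts, and rose by 0.88 (SE 0.14, adjusted p = 0.0125). It passed with each library left out in turn (highest adjusted p 0.0476). Without knockout replicates 1 and 4 together it had a log2 fold change of 0.66 (adjusted p = 0.133). Lox is also a gene of matrix-making cells, and 1 of 6 fibroblast markers was called higher, whose part in this was not tested. Rora, a nuclear receptor, rose by 0.66 (SE 0.17, adjusted p = 0.0345), and missed with any 1 library but control 2 or knockout 3 left out (0.0796 to 0.102).

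Ak4, a mitochondrial adenylate kinase that is also abundant in proximal tubule, had 43.3, 23.3, 34.2 and 75.7 CPM in controls and 11.6, 11.9, 14.6 and 13.4 CPM in knockouts. No knockout reached a control, and Ak4 fell by 1.77 (SE 0.32, adjusted p = 0.0156), missing without knockout 1 (0.0502) or knockout 4 (0.0588). Higd1a, a mitochondrial protein induced by hypoxia, fell by 0.48 (SE 0.11, adjusted p = 0.0272), and missed with any 1 library but control 2 or knockout 3 left out (0.0641 to 0.0825). Epo, the kidney hormone that HIF controls, was near 0 in every library, at most 0.127 CPM, and was not tested.

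**Figure D4:**
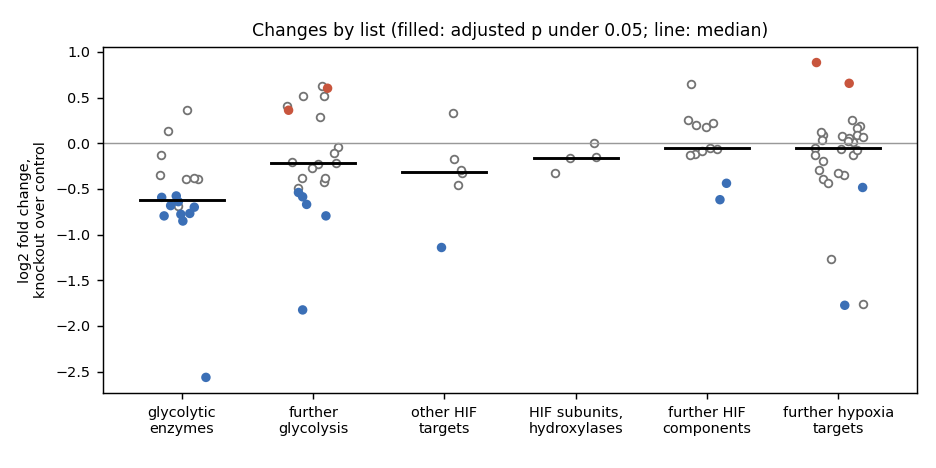
Log2 fold change of each tested gene in 6 lists of glycolysis and hypoxia genes, with filled points for an adjusted p under 0.05 and a line at each list's median. The medians are -0.62 for the glycolytic enzymes, -0.22 for further glycolysis genes, -0.31 for the other HIF targets, -0.16 for subunits and hydroxylases, -0.06 for further HIF components and -0.05 for further hypoxia targets.

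The balance between related genes was compared within each library, which does not depend on the scaling between libraries. For 8 pairs the log2 ratio of counts was tested by exact permutation of the 8 libraries (70 assignments, two-sided), whose smallest possible p is 0.0286, with adjustment over the 8. Scaled to gene length, Slc2a3 made up 6.13%, 8.50%, 3.46% and 4.55% of Slc2a3 plus Slc2a1 in the controls and 12.6%, 14.9%, 10.1% and 15.9% in the knockouts. Every knockout was above every control, and the ratio was 2.68 times higher (p = 0.0286, adjusted p = 0.0762, exact permutation test). Slc2a1 thus remained the larger of the pair in all 8 libraries.

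Eno2 made up 2.28%, 3.64%, 2.44% and 2.09% of both enolases in the controls and 5.42%, 3.97%, 4.83% and 5.22% in the knockouts, without overlap (1.94 times, p = 0.0286, adjusted p = 0.0762, exact permutation test). Pkm made up 98.5% to 99.3% of pyruvate kinase in controls and 99.6% to 99.9% in knockouts, again without overlap and with the same p-values in the exact permutation test. These 3 ratios were higher in all 4 knockouts, but none passes after adjustment. Each had the smallest p this test can give, and with 3 such pairs of 8 the adjusted p could not fall below 0.0762. The adjusted test therefore cannot decide on them. The other pairs overlapped, with unadjusted exact permutation p-values of 0.171 for Ldha to Ldhb, 0.343 for Hk2 to Hk1, 0.286 for Pfkp to Pfkl and 0.371 for Epas1 to Hif1a. For Aldoc to Aldoa the mean log2 ratio differed by -0.03, with SDs of 0.19 and 0.18 between libraries.

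**Figure D5:**
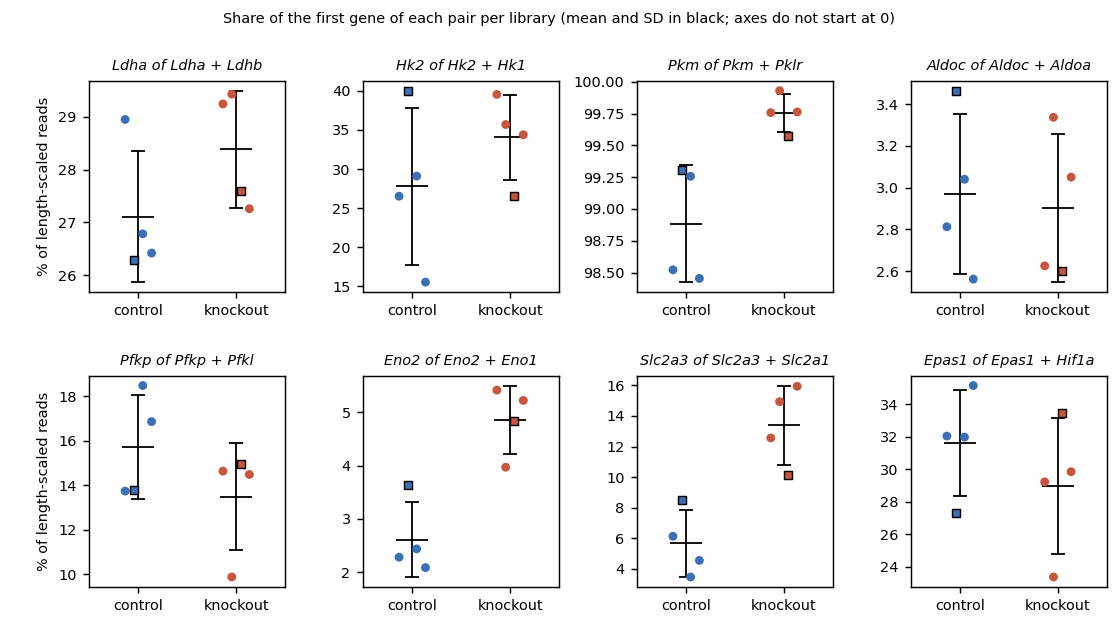
Share of the first gene of each of 8 pairs in percent of length-scaled reads of both, per library and group, with mean and SD in black, squares for control replicate 2 and knockout replicate 3, and axes that do not start at 0. The groups are apart for Pkm of Pkm plus Pklr, Eno2 of Eno2 plus Eno1 and Slc2a3 of Slc2a3 plus Slc2a1, and overlap in the other 5 pairs.

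Scaled per kilobase of gene (RPKM, that is CPM per kilobase of exon), the order of levels was similar in both groups. Ldhb (387 ± 99.4 RPKM) and Gapdh (382 ± 73.0 RPKM) were highest in controls and did not differ beyond their spread. Pgk1 followed (186 ± 36.7 RPKM), and Pkm, Tpi1, Aldoa, Eno1 and Ldha lay between 144 and 175 RPKM, closer together than their SDs. In the knockouts Gapdh (254 ± 23.1 RPKM) and Ldhb (227 ± 35.5 RPKM) were again highest. Among the 6 other HIF targets Ddit4 (55.8 ± 30.7 RPKM) and Ndrg1 (48.0 ± 12.3 RPKM) were highest in controls and did not differ beyond their spread. Ndrg1 had 21.8 ± 4.09 RPKM in the knockouts, and went from place 12 to place 16 of the 34. Car9, with 1.18 ± 0.432 RPKM, had the lowest mean of the 34 in controls.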

How the data were processed

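The values are raw counts of reads per gene as the authors deposited them, whole numbers that are not normalized, for 49315 Ensembl IDs with exon coordinates and lengths (per the file headers). The submitters' processing notes name Trimmomatic 0.36, STAR 2.5.2b, featureCounts, Subread 1.5.2, DESeq2 and the build GRCm38. Whether counting used strand, and what was done with reads that fit more than 1 gene, is not given in the sources used here. Another annotated gene lies over 18 of the 34 genes, for 5 of them on the same strand. Gapdh, Eno1, Pgk1, Ldha and Tpi1 belong to families with near-identical pseudogenes, so their counts are uncertain to that extent.

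The table of the whole series and the tables per library differed in 0 cells. Counts were scaled by TMM and filtered with filterByExpr at its defaults (18485 genes). Groups were compared in R 4.3.3 by the quasi-likelihood F test of edgeR 4.0.16, genotype being the only term. Benjamini-Hochberg adjustment ran over all genes tested, and the SE is the log2 change over the square root of F. CPM are per scaled library size, and principal components used log2 CPM with a prior count of 2. Ratios of counts had 0.5 added. Steps were run on simulated data to check the code. Those data had the same spread for every gene and no shared shifts of single libraries, so they do not give error rates for these libraries. No pair of libraries agreed within sampling noise (chi-square per degree of freedom from 11.9 to 103). By this measure control replicate 2 was nearer to every knockout (17.7 to 22.1) than to any other control (34.7 to 61.0). Knockout replicate 3 had 18.3 with control replicate 2, 22.4 to 31.5 with the other knockouts and 39.2 to 63.4 with the other controls. The cause was not tested.

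Alternatives were DESeq2 size factors, DESeq2 1.42.0, limma-voom 3.58.1 with sample weights, all genes without a filter, genes at 1 CPM or more on average, a replicate block, covariates for Y-linked and for adrenal transcripts, 2 added to counts in the ratios, each library left out, and the pairs of libraries named in the report left out. The text names all 34 genes, Kdm1a, up to 4 called genes in each direction of each wider list by smallest adjusted p, and markers needed beside a result. Mpc2 falls outside that rule and was named after its values were seen. The genes, lists and tests were chosen with earlier results of these data known, so no list gets a test of its own.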

Additional observations from a re-analysis of the deposited data

Results flagged for a closer look

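In groups of 4 libraries, 1 library was set apart where its gap to the nearest other took up most of the range of its group (Dixon's criterion at 95%). Of 120 groups checked 7 were so marked, which is near the rate of about 1 in 20 groups that chance marks. In 4 of the 7 it was knockout replicate 3 that stood high, but these 4 are not independent, as the summed enzymes include the other genes marked. That library had 1191 CPM of Gapdh (next 1005), 596 CPM of Eno1 (next 504), 349 CPM of Ldha (next 284) and 5375 CPM of the summed glycolytic enzymes (next 4469). Control replicate 2 was low in Pfkm, at 72.5 CPM (next 88.6). Knockout replicate 2 was low in Ndrg1, at 104 CPM (next 154), and in the share of Pfkp in Pfkp plus Pfkl, at 9.87% (next 14.5%).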

How the results depend on the processing

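With 4 libraries a group, the calls turned on which libraries entered. Over all genes 2751 were called (1222 higher, 1529 lower), and leaving out each library in turn gave 153 to 7084 (110 to 3486 higher, 43 to 3598 lower). Among the 34 genes, leave-one-out fits called 0 to 3 higher and 0 to 19 lower, most of them without control replicate 2. With control replicate 2 and knockout replicate 3 left out together, 7903 genes were called (3791 higher, 4112 lower), 21 of the 34 lower. With knockout replicates 1 and 4 left out, 1 gene was called higher and 0 lower, and of the 34 genes 0 either way. The log2 fold change of Kdm1a ran from -0.29 to -0.24 with 1 library left out, and was -0.28 (adjusted p = 0.191) without knockouts 1 and 4. DESeq2 called 4506 genes (1997 higher, 2509 lower), and limma-voom 8302 (4061 and 4241), of the 34 genes 4 higher and 21 lower. The adrenal covariate left 1195 (584 and 611), of the 34 genes 1 higher (Slc16a3) and 2 lower (Aldoc and Ndrg1). The Y-linked covariate left 2068, of the 34 genes 2 higher and 8 lower. Without a filter on low counts 1 of the 34 was called higher, Slc16a3.

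Nothing in the labels says whether a number pairs samples, and the main fit used no pairing. Deviations of same-numbered libraries correlated at -0.11, 0.33, 0.23 and -0.06, beside -0.47 to 0.40 for other pairs. So few correlations cannot settle whether samples were paired. The replicate block called 1 of the 34 higher and 16 lower, in a fit that called 3229 genes over the whole table. Genes near 0 changed sign. Egln1 was positive in 9 of 18 alternatives, at 0.0798 (limma-voom), 0.0077 (mean of 1 CPM), 0.0372 (adrenal covariate), 0.0350 (control 2 and knockout 3 left out) and 0.0401 (knockouts 1 and 4 left out), and ran from -0.0443 to 0.0701 with 1 library left out. Without knockouts 1 and 4, Hk2 was -0.0022 and Pdk1 -0.0071. With 1 library left out, Hk2 ran from -0.0279 to 0.284 and Pdk4 from -0.63 to 0.20. The log2 ratio of Aldoc to Aldoa ran from -0.10 to 0.0480 in the same way, and was 0.10 without control 2 and knockout 3 together. The cause was not tested. All 14 calls kept their direction in all 18 alternatives. Counting limits Pklr, Car9 and Ankrd37, whose knockout means are 1.10, 3.42 and 3.35 CPM.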
